A study of Mus musculus with 4 samples.

Results

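The 10 genes of the NF-kappaB family and its immediate regulators, Nfkb1, Nfkb2, Rel, Rela, Relb, Nfkbia, Nfkbib, Nfkbie, Map3k14 and Traf3, were looked up in the expression profile of CCR6+ group 3 innate lymphoid cells (ILC3). A gene was taken where the platform annotation named it alone on a probe set, and the probe set with the highest mean would have stood for a gene with several. This gave 8 of the 10 genes, each with 1 probe set, out of 19938 named genes on the array. Nfkb1 and Traf3 are not analysed here, so the precursor of p50 and the adaptor that holds NIK in check have no value below.

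NF-kappaB is a family of dimeric transcription factors. In the canonical arm, dimers that hold RelA or c-Rel are kept in the cytoplasm by inhibitors of the IkappaB family until the IKK complex marks the inhibitors for degradation. In the noncanonical arm, receptors such as the lymphotoxin beta receptor stabilise the kinase NIK, which leads to processing of the p100 precursor to p52 and lets p52 and RelB dimers enter the nucleus. The noncanonical arm is known for lymph node development, in which lymphoid tissue inducer cells, relatives of CCR6+ ILC3, give lymphotoxin to stromal cells.

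The 4 samples form 1 group. All came from the mesenteric lymph node of naive mice of the C57BL/6 strain and were sorted as CD127+ CD90.2+ CCR6+ ST2- cells into Trizol, a reagent for RNA extraction. No genetic change or treatment is labelled, and age, sex, the number of animals per sample and any marker used to remove B or T cells are not stated in the labels. Nothing says that the samples came from separate mice, so the spread between arrays may be partly technical. There was no second group, so the values answer which NF-kappaB genes these cells carried above background and how steady each was over 4 arrays. Values are log2 levels per probe set, on which 1 unit is a doubling, and because binding strength is particular to each probe set, a higher level of one gene than of another does not mean more RNA. Genes are set against the background genes and against genes of other organs only as a rough guide to whether they were detected.

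The gate genes were present on every array, with Il7r (CD127) at 12.57, 12.49, 12.58 and 12.62 on arrays 1 to 4, Thy1 (CD90) at 11.56, 11.19, 11.30 and 11.38 and Ccr6 at 10.42, 10.52, 10.60 and 10.42. Of all named genes 46.2% were called above background, and all 8 measured ILC3 markers were. So were 10 of 11 B cell markers, 9 of 11 T cell markers, 5 of 9 natural killer cell and ILC1 markers, 5 of 12 myeloid and dendritic cell markers and 3 of 8 markers of stroma and endothelium, the last 3 being near or below the share over all genes. The mean of the B cell markers ranged from 7.86 to 8.83 between arrays, that of the T cell markers from 7.48 to 7.78, and that of the ILC3 markers from 10.20 to 10.32. The profile is of bulk RNA, so more cells of a type and more RNA per cell cannot be told apart.

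Promoters of 3 genes are shown because their genes were the steadiest member over the arrays, Nfkbia, and those with the largest spread, Rel and Nfkb2, and because NF-kappaB is known to bind promoters of its own family. RefSeq sequences of build GRCm38.p6, from 250 bases before to 50 bases after the transcription start, were matched by symbol for 7 of the 8 genes, in 9 windows since Nfkb2 has 3 starts. Relb and Nfkb1 had no entry. The windows were searched on both strands for the kappaB consensus, and the letters that match are in capitals. Nfkbia lies on the minus strand at chr12:55492598-55492897, the first of the Nfkb2 starts on the plus strand at chr19:46304487-46304786 and Rel on the minus strand at chr11:23770920-23771219. Each is written 5′ to 3′ along its gene.
Nfkbia: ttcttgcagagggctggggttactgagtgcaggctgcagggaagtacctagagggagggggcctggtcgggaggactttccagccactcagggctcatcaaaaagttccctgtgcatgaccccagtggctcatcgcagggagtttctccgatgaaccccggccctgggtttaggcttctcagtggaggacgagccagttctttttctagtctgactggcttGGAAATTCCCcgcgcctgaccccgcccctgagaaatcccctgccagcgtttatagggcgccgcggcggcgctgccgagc
Nfkb2: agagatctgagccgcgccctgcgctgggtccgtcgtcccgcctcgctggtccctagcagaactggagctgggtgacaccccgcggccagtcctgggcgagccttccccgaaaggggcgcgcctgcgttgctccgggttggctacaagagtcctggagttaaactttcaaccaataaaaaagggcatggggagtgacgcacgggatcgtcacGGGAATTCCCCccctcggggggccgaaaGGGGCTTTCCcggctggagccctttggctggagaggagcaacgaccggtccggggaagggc
Rel: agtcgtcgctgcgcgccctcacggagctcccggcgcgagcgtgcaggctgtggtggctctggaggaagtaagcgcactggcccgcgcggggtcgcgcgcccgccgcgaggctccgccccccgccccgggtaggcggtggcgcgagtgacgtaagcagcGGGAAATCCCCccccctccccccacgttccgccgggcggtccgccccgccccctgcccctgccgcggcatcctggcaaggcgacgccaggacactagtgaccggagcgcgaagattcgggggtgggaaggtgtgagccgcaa

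In these windows the Nfkbia match begins 29 bases before the start, those of Nfkb2 begin 39 and 11 bases before it, and that of Rel 92 bases before it. The capitals in Nfkb2 and Rel that run longer than the consensus are overlapping matches. A match was found for 4 of the 7 genes, in 6 of the 9 windows, the other gene being Nfkbie with 1 match. Rela, Nfkbib and Map3k14 had no match to these letters in this window. Of all 32851 promoter windows of this length, 4.51% held a match. Of the exact letters matched, GGGACTTTCC was in 0.155% of all windows and in the windows of the other Nfkb2 starts, which overlap. GGGAATTCCC was in 0.0396% of all windows and in the Nfkb2 window printed above. A match is a description of the sequence, and no binding was measured here.

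All 8 genes were called above background by their rank among receptor genes of smell, pheromone, trace amine and bitter taste sensing. These served as 1237 genes not expected in lymphocytes. The same rule called 46.2% of all named genes. Nfkb2, Rel, Rela, Nfkbia and Nfkbib had means above those of all background genes. Some background genes reached the means of Nfkbie, Map3k14 and Relb. By limma's moderated one-sided test against the 95th percentile of background, 8 of 8 were called as well, against 53.9% of all named genes. The adjusted detection p was 0.0108 for Nfkb2, Rel, Rela, Nfkbia and Nfkbib, 0.0143 for Nfkbie, 0.0161 for Map3k14 and 0.0201 for Relb. These p-values are ranks among the background genes and are one-sided, and 0.0108 was the smallest that the ranks gave after Benjamini-Hochberg adjustment over all named genes. The median level of the 8 genes was 9.20, against 6.16 over all named genes, 7.73 over the 9203 genes above background and 4.25 over the background genes. The count and the median describe the 8 genes, and no test of the list was run.

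**Figure D1:**
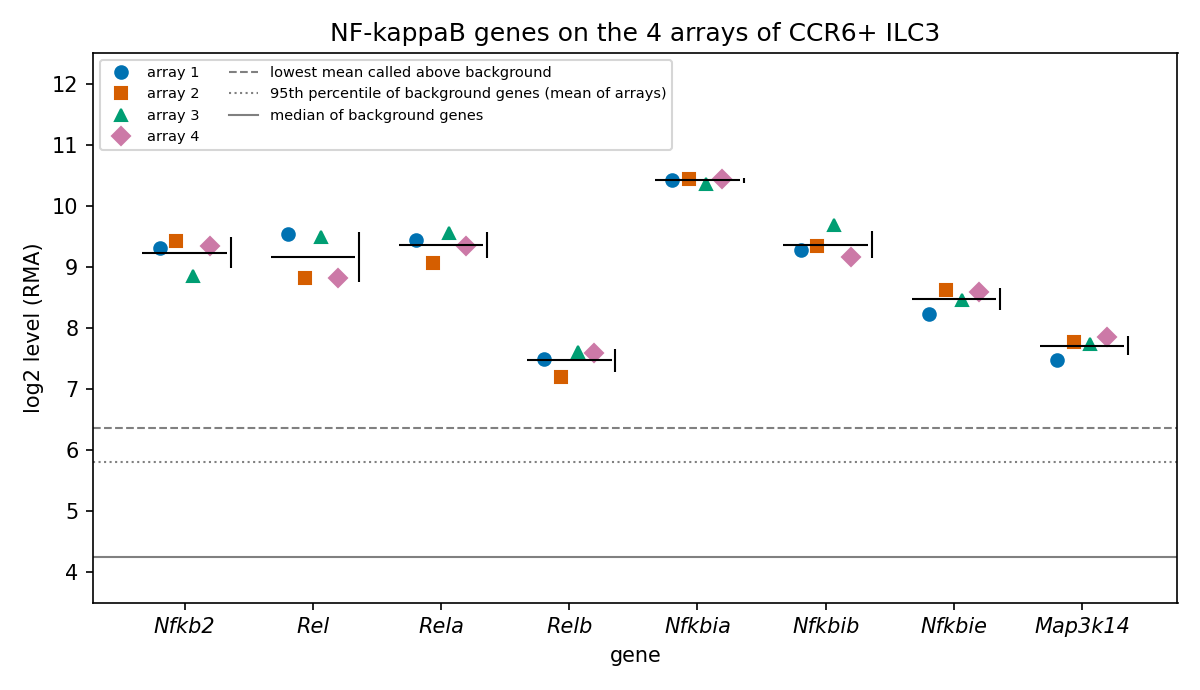
Log2 level (RMA, vertical axis) of the 8 NF-kappaB genes (horizontal axis) on each of the 4 arrays (coloured symbols), with the mean (horizontal bar) and the SD of the 4 arrays (vertical bar beside it). All symbols lie above the dashed line at 6.37, the lowest mean called above background, and the symbols of Nfkbia lie almost on each other while those of Rel fall into a higher and a lower pair.

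The DNA-binding subunits of the canonical arm were described first. Rela, which encodes RelA (p65), the main activating subunit, was at 9.44, 9.07, 9.56 and 9.34 on arrays 1 to 4, a mean of 9.35 ± 0.21 (SD, n = 4). Its lowest value was on array 2, and without array 2 the SD was 0.111. Here and in the accounts of single members below, the array left out was the furthest from that gene's mean. It was chosen after the values were seen, so the smaller SD without it was fixed in advance. Rel, which encodes c-Rel, a subunit known mainly from lymphocytes, was at 9.54, 8.81, 9.49 and 8.81, a mean of 9.16 ± 0.41 (SD, n = 4). Arrays 1 and 3 were high and arrays 2 and 4 low, the highest being 1.66 times the lowest on a linear scale.

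The subunits of the noncanonical arm were both above background. Nfkb2, which encodes p100 and its product p52, was at 9.31, 9.43, 8.85 and 9.35, a mean of 9.23 ± 0.26 (SD, n = 4). The arrays other than array 3 lay close together, and without array 3 the SD was 0.0599. Leaving out any other array gave an SD of 0.278 to 0.314. Relb, which encodes the partner of p52, was at 7.49, 7.19, 7.61 and 7.58, a mean of 7.47 ± 0.19 (SD, n = 4). It was lowest on array 2, and without that array the SD was 0.0638. With any other array left out instead, the SD of Relb was 0.207 to 0.237.

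Of the 3 inhibitors, Nfkbia differed least between arrays. Nfkbia encodes IkappaB-alpha, which NF-kappaB itself induces and which ends a response by taking dimers out of the nucleus. It was at 10.42, 10.44, 10.36 and 10.44, a mean of 10.41 ± 0.04 (SD, n = 4), and the values of arrays 2 and 4 were the same to all printed digits, which the median polish of RMA can produce and which can make an SD too small. Array 3 was the lowest, and without it the SD was 0.0116. Nfkbib, which encodes IkappaB-beta, was at 9.27, 9.34, 9.68 and 9.16, a mean of 9.36 ± 0.22 (SD, n = 4). It was highest on array 3, without which the SD was 0.0913. Nfkbie, which encodes IkappaB-epsilon, was at 8.22, 8.62, 8.46 and 8.59, a mean of 8.47 ± 0.18 (SD, n = 4), with array 1 the lowest and an SD of 0.0819 without it.

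Map3k14 encodes NIK, the kinase that starts the noncanonical arm and is held low mainly by degradation of the protein, which an array does not measure. It was at 7.48, 7.77, 7.74 and 7.85 on arrays 1 to 4, a mean of 7.71 ± 0.16 (SD, n = 4). Array 1 was the lowest, and without it the SD was 0.0573.

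A stricter reading asked whether a gene lay above every value of 15 measured genes of other organs on every array. Of those 15 genes 5 were themselves called above background, among them Krt10, a keratin, at 7.14, 7.34, 9.32 and 7.29, Ckm, the muscle creatine kinase, at 7.33 ± 0.14 and Apoa1, a liver apolipoprotein, at 7.24 ± 0.11 (SD, n = 4). Krt10 on array 3 set the bar at 9.32, which 4.93% of named genes passed, and among the members Nfkbia alone did. Without array 3, and so without the value that set the bar, the count was 7 of 8, and without array 2 it was 2 of 8. The share of all named genes was not counted with an array left out, so these counts say nothing particular to the members. Without Krt10, a reading chosen after the values were seen, the bar was 7.42, which 24.1% of named genes passed, and 7 of the 8 genes did, all but Relb. On array 2 Relb was at 7.19, below the highest values of Ckm and Apoa1, and the lowest value of Map3k14, 7.48 on array 1, lay just above the bar.

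The spread over the arrays differed from member to member. Their median SD was 0.202 log2 units, against 0.168 over the genes above background, where the 5th percentile was 0.0393 and the 95th was 0.476. Among 500 genes above background with the nearest means, the SD of Rel was larger than that of 94.0% and the SD of Nfkb2 larger than that of 81.8%. For Nfkbib the share was 74.4%, for Rela 70.8%, for Relb 48.0%, for Nfkbie 43.0% and for Map3k14 39.4%. Nfkbia had a larger SD than 5.6% of the genes at its level. With 1 sample per array, no test of a difference between arrays was possible.

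**Figure D2:**
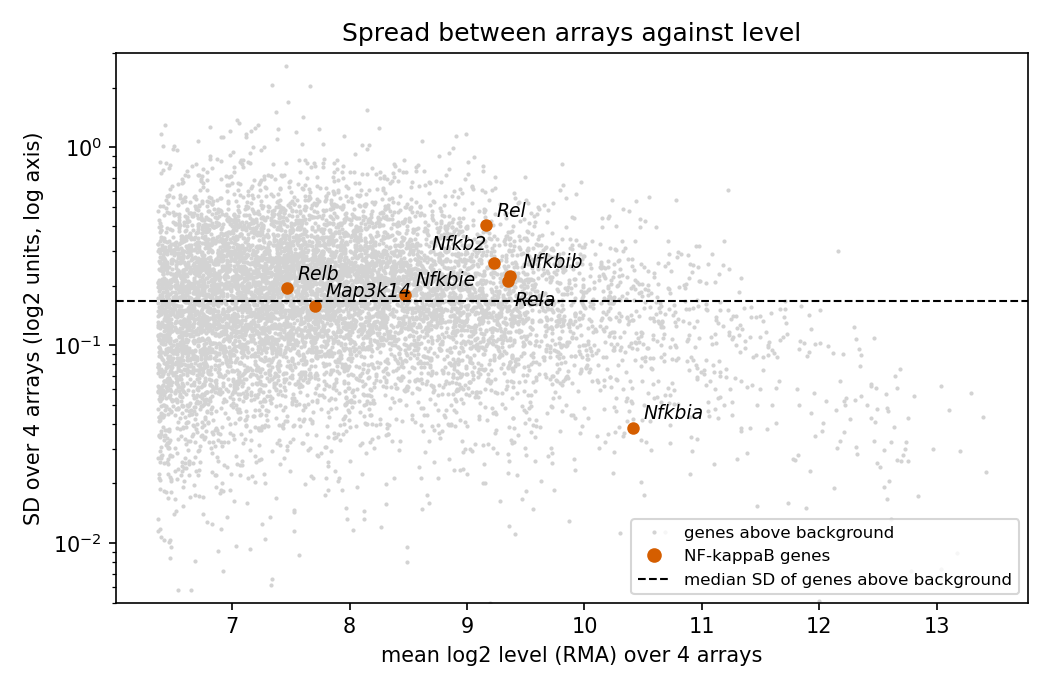
SD over the 4 arrays (vertical axis, log2 units on a log axis) against the mean log2 level (horizontal axis) for all 9203 genes above background (grey) and the 8 NF-kappaB genes (orange, named). The dashed line is the median SD of genes above background, 0.168, with Rel at 0.406 well above it and Nfkbia at 0.0383 well below it.

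The 8 genes did not share 1 pattern over the arrays. Each array held the lowest value of 2 of them: Nfkbie and Map3k14 were lowest on array 1, Rela and Relb on array 2, Nfkb2 and Nfkbia on array 3, and Rel and Nfkbib on array 4. Over all genes above background, 24.1%, 21.5%, 27.3% and 27.1% were lowest on arrays 1 to 4. The mean of the 8 genes lay between 8.83 on array 2 and 8.97 on array 3.

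**Figure D3:**
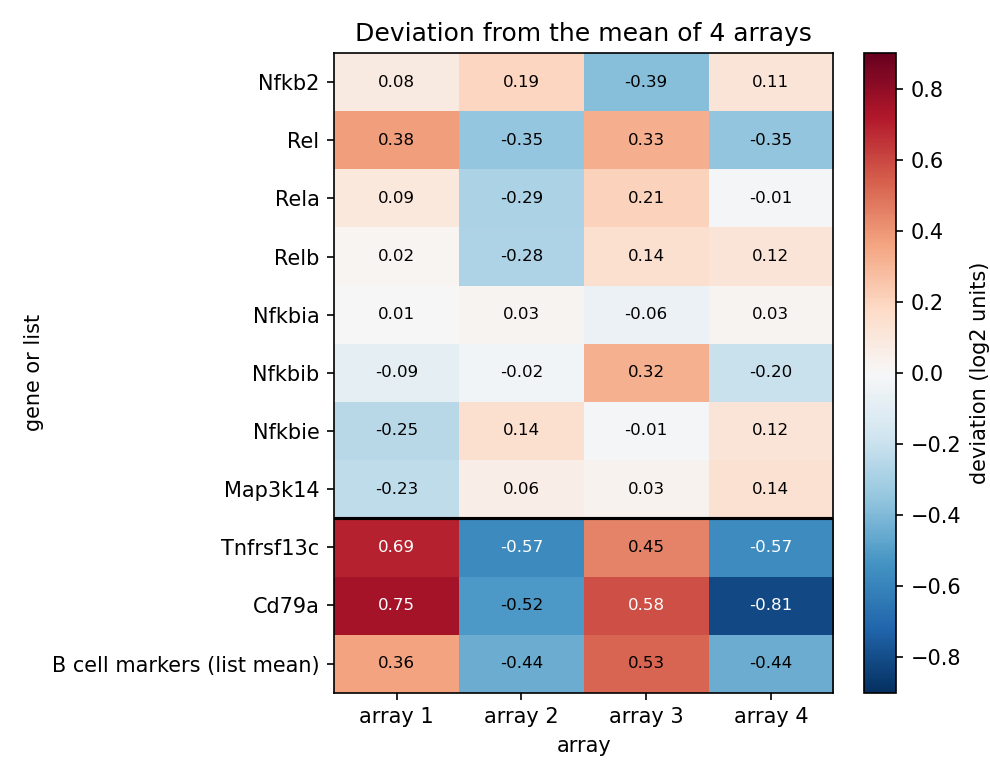
Deviation of each value from its own mean over the 4 arrays (colour and printed number, log2 units) for the 8 NF-kappaB genes, for Tnfrsf13c and Cd79a, both known from B cells, and for the mean of 11 B cell markers (rows), on arrays 1 to 4 (columns). Rel is above its mean on arrays 1 and 3 and below it on arrays 2 and 4, as are the rows under the black line, while Nfkb2 falls below its mean on array 3 alone.

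Markers of other cell types also differed between arrays, those of B cells most. Their mean was 8.67, 7.86, 8.83 and 7.86 on arrays 1 to 4, and for 8 of the 11 the values of arrays 1 and 3 both exceeded those of arrays 2 and 4. Cd79a, a signalling chain of the B cell receptor, was at 9.59, 8.33, 9.43 and 8.03. Cd79b, the other such chain, was at 10.21, 9.58, 10.38 and 9.19. Pou2af1, another B cell marker, was at 8.98, 8.85, 9.62 and 9.31 and did not have this order, being higher on array 4 than on array 1. Of the NF-kappaB genes, Rel and Rela had this order, 2 of 8, against 16.4% of all genes above background. So had 4 of 11 T cell markers, 2 of 9 natural killer cell and ILC1 markers, 2 of 12 myeloid and dendritic cell markers, 1 of 8 markers of stroma and endothelium and 1 of 8 ILC3 markers. Lyz2, a lysozyme gene of myeloid cells, had this order at 9.11, 7.76, 8.51 and 7.50. So had Klrk1, a receptor of natural killer cells, at 8.89, 7.67, 8.72 and 7.86. The other named markers of these lists did not. Fscn1 was at 6.66, 7.69, 8.16 and 6.82 and Cd68 at 6.45, 7.51, 7.09 and 6.72, both lowest on array 1. Ncr1 was at 8.39, 7.83, 7.23 and 7.18 and Klrb1c at 7.97, 8.09, 8.01 and 8.005. Arrays 1 and 3 were set against arrays 2 and 4 after the values were seen. The part of B cells or of these other cells in the level of Rel was not tested. On arrays 2 and 4 alone, Rel had a mean of 8.81 and all 8 genes were above background, with a mean of the B cell markers of 7.86 on each. Cd79a was at 8.33 and 8.03 and Cd79b at 9.58 and 9.19 on these arrays. This choice of arrays therefore did not set RNA of B cells aside.

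The genes whose pattern over the 4 arrays was nearest to that of Rel were sought among the other 9202 genes above background, by the distance between deviations from the mean. They were Lrrk2, a kinase, at 7.31, 6.68, 7.28 and 6.64 with a distance of 0.0707 log2 units, Ero1b, an oxidase of the endoplasmic reticulum, at a distance of 0.0708, and Rubcnl at 0.134. Lrrk2 had a second probe set with a mean of 4.89, so its call rests on the higher of the pair. For Nfkb2 the nearest were Tmed8 at 7.94, 8.07, 7.49 and 7.99 with a distance of 0.0137, Nosip at 0.0358 and Ahsa1, a co-chaperone of HSP90, at 0.0382. With 4 arrays many genes lie near any pattern, and the likeness is a description.

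The other genes of the pathway were then counted by role. Of 76 listed genes 71 were measured and the rest are not analysed here. The 71 genes had a median level of 7.39, and 50 of them (70.4%) were above background, against 6.16 and 46.2% over all named genes. Of the 50 genes, 15, 11, 14 and 10 were lowest on arrays 1 to 4. Each count by role below stands beside the same 46.2%, and the lists were chosen with earlier results of these data known.

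**Figure D4:**
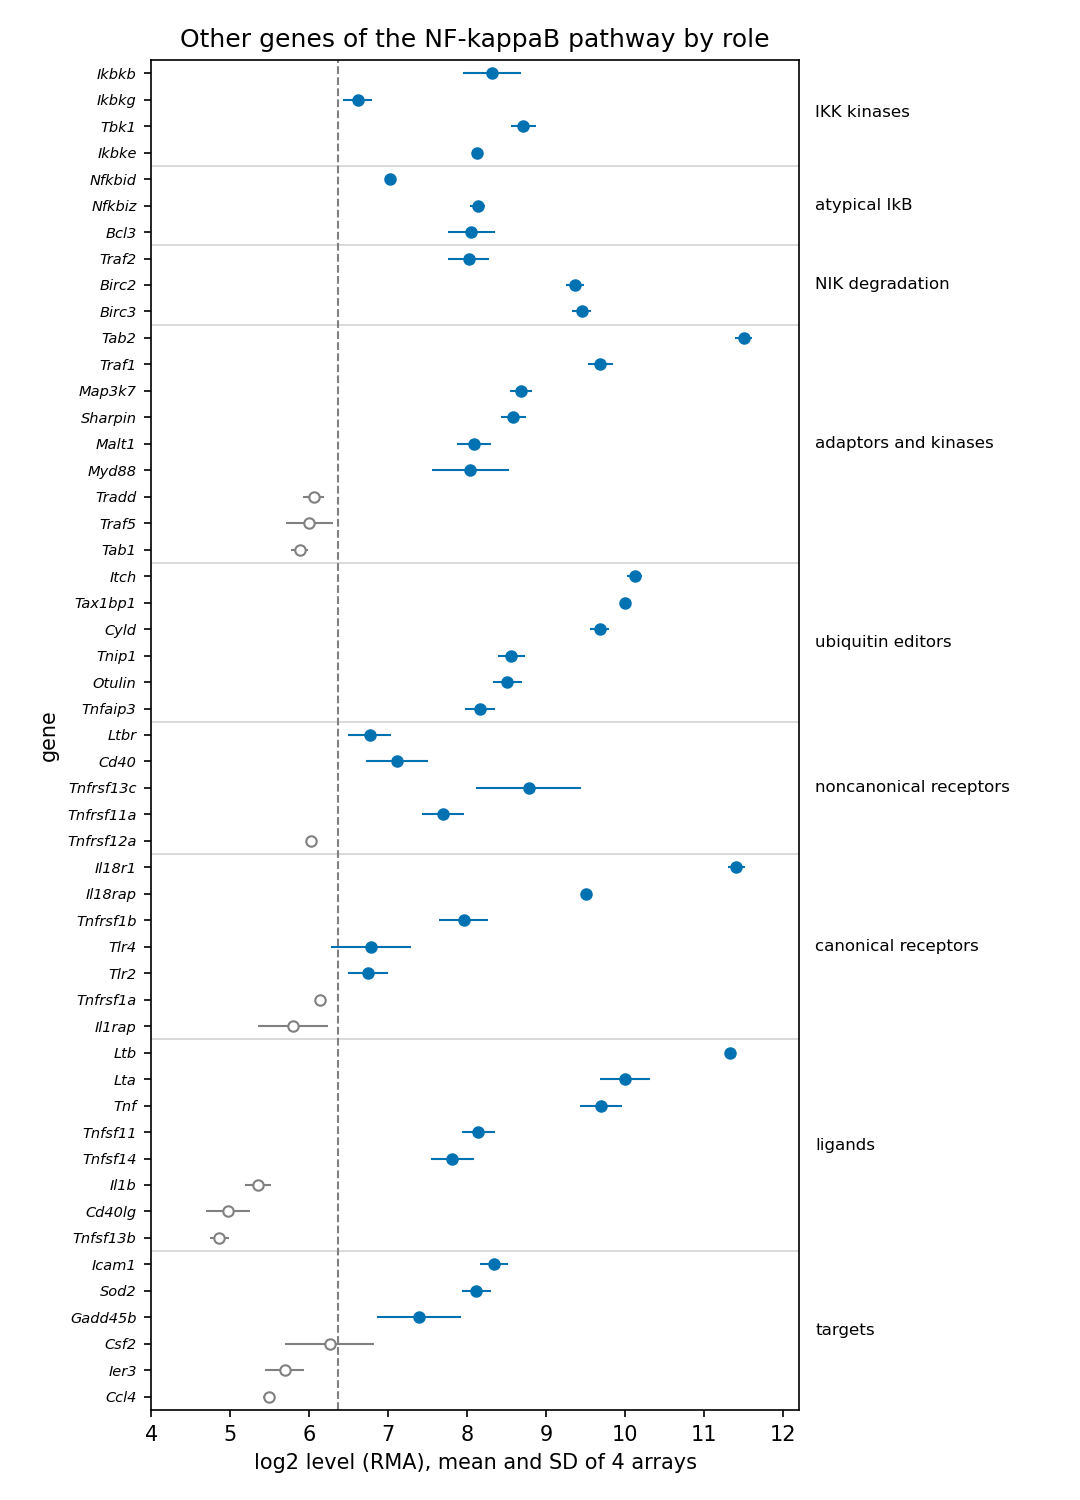
Mean log2 level (horizontal axis, RMA) with the SD of 4 arrays (bars) for the named genes of the NF-kappaB pathway (vertical axis), grouped by role (right). Filled blue points were above background and open grey points were not, and the dashed line is the lowest mean called above background, 6.37. Traf1, Birc3 and Tnfaip3, which also belong to the targets, are drawn once under their first role.

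Kinases of the IKK family were above background in 4 of 4 measured cases. Ikbkb, which encodes IKK-beta, the main kinase of the inhibitors, was at 8.48, 7.78, 8.59 and 8.41 and thus lowest on array 2. Ikbkg, which encodes NEMO, the regulatory subunit, was at 6.79, 6.75, 6.39 and 6.53, close to the lowest level called. The related kinases Tbk1 and Ikbke were at 8.71 ± 0.16 and 8.12 ± 0.06 (SD, n = 4). Ikbke had the same value on arrays 1 and 3 to all printed digits, so its SD may be too small. The atypical IkappaB proteins, which act in the nucleus, were above background in 3 of 3 cases. Nfkbiz was at 8.13 ± 0.10, Nfkbid at 7.02 ± 0.06 and Bcl3, a partner of p50 and p52 dimers, at 7.97, 8.46, 7.74 and 8.04 on arrays 1 to 4. Bcl3 had its lowest value on array 3, as Nfkb2 did.

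The proteins that degrade NIK together with TRAF3 were above background in 3 of 3 cases. Traf2, the adaptor that brings the ligases, was at 8.39, 7.98, 7.91 and 7.78 on arrays 1 to 4. Birc2 and Birc3, which encode the ubiquitin ligases cIAP1 and cIAP2, were at 9.37 ± 0.12 and 9.45 ± 0.12 (SD, n = 4). The second probe set of Birc2 gave 7.27, 8.06, 7.37 and 8.39, so the probe sets of this gene disagreed on array 4.

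Adaptors and kinases upstream of IKK were above background in 12 of 15 measured cases. Tab2, which links ubiquitin chains to the kinase TAK1, was at 11.50 ± 0.11, Map3k7, which encodes TAK1, at 8.68 ± 0.14, Sharpin, of the linear ubiquitin ligase, at 8.58 ± 0.15 and Malt1, of the antigen receptor route, at 8.09 ± 0.21 (SD, n = 4). Traf1 was at 9.76, 9.73, 9.45 and 9.79, lowest on array 3. Myd88, the adaptor of Toll-like and interleukin-1 receptors, was at 7.60, 8.43, 7.63 and 8.49, low on arrays 1 and 3 and high on arrays 2 and 4, the reverse of Rel. Tradd at 6.05 ± 0.13, Traf5 at 6.00 ± 0.30 and Tab1 at 5.88 ± 0.11 were not above background.

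Ubiquitin editors that restrain the pathway were above background in 8 of 8 cases. Itch, a ubiquitin ligase, was at 10.12 ± 0.09, Tax1bp1, an adaptor of A20, at 9.998 ± 0.048 and Cyld, a deubiquitinase, at 9.67 ± 0.12 (SD, n = 4). Tnip1 was at 8.56 ± 0.17 and Otulin, which cuts linear chains, at 8.51 ± 0.18. Tnfaip3, which encodes A20 and is itself an NF-kappaB target, was at 8.41, 8.18, 8.12 and 7.93, highest on array 1 and lowest on array 4.

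Receptors of the noncanonical arm were above background in 4 of 5 cases. Tnfrsf11a, which encodes RANK, was at 7.35, 7.999, 7.65 and 7.78, Ltbr, the lymphotoxin beta receptor, at 6.50, 6.71, 6.71 and 7.15 and Cd40 at 7.09, 6.95, 7.66 and 6.74. Tnfrsf13c, the BAFF receptor known from B cells, was at 9.47, 8.20, 9.22 and 8.21, high on the arrays on which the B cell markers were high. Tnfrsf12a, at 6.03 ± 0.06, was not above background. Ltbr on every array, Cd40 on arrays 1, 2 and 4 and Tnfrsf11a on array 1 lay below the highest value of Ckm.

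Receptors of the canonical arm were above background in 5 of 7 measured cases. Il18r1 and Il18rap, the chains of the interleukin-18 receptor, were at 11.41 ± 0.11 and 9.50 ± 0.03 (SD, n = 4). Il18rap had the same value on arrays 2 and 3 to all printed digits, so its SD may be too small. Tnfrsf1b, which encodes TNF receptor 2, was at 7.75, 7.70, 8.38 and 7.98, while Tnfrsf1a, which encodes TNF receptor 1, was at 6.13 ± 0.05 and not above background. Tlr4 was at 6.25, 7.25, 7.19 and 6.45 and Tlr2 at 6.40, 7.01, 6.73 and 6.82, both at levels that some other-organ genes also reached. Il1rap, the accessory chain of the interleukin-1 receptor, was at 5.79 ± 0.44 and not above background.

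Ligands that engage these receptors were above background in 5 of 9 cases, near the 46.2% of all named genes. Ltb, the membrane anchor of the lymphotoxin that drives the noncanonical arm, was at 11.40, 11.27, 11.37 and 11.28, and Lta, its partner, at 9.58, 10.31, 10.16 and 9.95. Tnf was at 9.32, 9.91, 9.71 and 9.84 and was, like Lta, lowest on array 1, as were Map3k14 and Nfkbie. Tnfsf11, which encodes RANKL, was at 8.16, 8.31, 7.84 and 8.25, and Tnfsf14, which encodes LIGHT, at 7.93, 7.98, 7.41 and 7.92, both lowest on array 3. Il1b at 5.35 ± 0.17, Cd40lg at 4.97 ± 0.28 and Tnfsf13b, which encodes BAFF, at 4.86 ± 0.12 were not above background.

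Genes known as targets of NF-kappaB were above background in 9 of 20 cases, a share close to the 46.2% of all named genes. Beside Traf1, Birc3 and Tnfaip3, they included Icam1, an adhesion molecule, at 8.34 ± 0.17, Sod2, the mitochondrial superoxide dismutase, at 8.12 ± 0.19 (SD, n = 4) and Gadd45b at 6.77, 8.0001, 7.60 and 7.18, which varied by 2.35-fold between arrays. Csf2 was at 6.33, 6.65, 5.44 and 6.63 and not above background, although it was without array 3, at 6.53. Ier3 at 5.69 ± 0.25 and the chemokine gene Ccl4 at 5.49 ± 0.07 were not above background. Arrays 3 and 4 gave the same value of Ccl4 to all printed digits, so its SD may be too small.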

How the data were processed

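The values the authors deposited are log2 levels, summarised per probe set by RMA according to the labels. This method removes background, brings the arrays to a common distribution and combines probes by median polish. Its version and the genome build are not stated there, and the number of arrays limits the precision. Of 35556 probe sets, 21789 named 1 gene in the platform annotation, 1621 named several and 12146 were not listed. Symbols were updated by Entrez identifier through the RefSeq table of GRCm38.p6 for 21698 of them, giving 19938 genes, of which 999 had several probe sets and were represented by the one with the highest mean.

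For each gene, background genes whose mean reached or passed the gene's mean were counted, and the detection p was that count plus 1, over the 1237 background genes plus 1, one-sided. It was adjusted by Benjamini-Hochberg over all named genes and called under 0.05. Of the background genes 27 were called. limma 3.58.1 in R 4.3.3 was an alternative, and the calculations were tested on simulated data. The members and lists were chosen with earlier results of these data known. Named genes were all members, the gate genes, up to 6 called and 3 uncalled genes per pathway list (all for lists of up to 5 genes), up to 3 called genes per marker list and of other organs, and the 3 genes nearest to each of the pair of members with the largest SD. No scanner files were used here, and the Pearson r across genes above background was 0.948 to 0.962 between arrays, with genes not being independent replicates.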

Additional observations from a re-analysis of the deposited data

Results flagged for a closer look

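On 4 arrays, a value was singled out when its gap to the nearest other array, divided by the whole range, passed the 95% limit of Dixon's test. Chance alone singles out about 1 in 20 such sets, and 8 of 104 examined were. No member of the NF-kappaB family was among them. Of the pathway genes, Birc2 was high on array 2 at 9.54 against 9.29 to 9.32 elsewhere. Its other probe set did not set array 2 apart, at 7.27, 8.06, 7.37 and 8.39 on arrays 1 to 4. Tax1bp1 was low on array 2 at 9.93 against 10.02 to 10.03. Tnfsf14 was low on array 3 at 7.41 against 7.92 to 7.98, and Sod2 was high on array 4 at 8.39 against 7.98 to 8.05. Array 3 also stood apart for Cd3g, a T cell receptor chain, at 9.51 against 8.47 to 8.59, for the mean of the T cell markers at 7.78 against 7.48 to 7.52, for Krt10 at 9.32 against 7.14 to 7.34, and for Ckm at 7.12 against 7.40 to 7.42.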

How the results depend on the processing

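No paired analysis was possible because the study has 1 group. All 8 genes stayed above background under each of 13 alternative settings. These left out an array or changed the probe set, the background genes, the scaling, the filter or the test (limma among them). The genes also stayed above background on arrays 2 and 4 alone, which were chosen after the data were seen. Not every setting was a check of the 8 genes. Each had 1 probe set, so another choice of probe set left its level as it was. Centring the arrays on their medians left the mean and the adjusted detection p of each unchanged. The number above every gene of other organs was 1, from 1 to 7 when an array was left out (7 without array 3, 2 without array 2). It was 7 on arrays 2 and 4 alone and 7 without Krt10. Array 3 held the Krt10 value that set the bar, and the share of all named genes was not counted with arrays left out. The other-organ genes called above background numbered 5, but 10 when the highest 5% of background genes were removed, 8 by the 95th percentile on every array and 8 by limma. The median SD of the members was 0.202, from 0.188 to 0.242 when an array was left out. On arrays 2 and 4 alone, where each SD is of 2 values, it was 0.0572. The same was not worked out for all genes above background, so 0.0572 says nothing particular to the members. The SD of Nfkbia was 0.0624 when arrays were quantile normalized again. Among the 88 named genes and all alternatives, 2 calls were lost, both of Lrrk2 with another choice of probe set, and 17 were gained, 8 of them with the trimmed background and 3 by limma (Tradd, Tnfrsf1a and Tnfrsf12a). No call of a member changed. Low levels limit the reading, since genes of other organs reached 9.32 with Krt10 and 7.42 without it.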
